A study of Mus musculus with 10 samples.

Results

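The genes that mark T, B and NK lymphocytes were followed in RNA of cells taken from the mouse heart with an antibody against CD31. They were 41 of the 46983 genes in the deposited count table: 22 T cell genes, 13 B cell genes and 6 NK cell genes. The genes were chosen by name as lineage markers, with results of this diet comparison already in view, so their diet differences are a description and carry no test of a list. All 41 were found in the table by matching its Ensembl identifiers to gene symbols.

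The study asked how a ketogenic diet changes gene expression in cardiac endothelial cells. Hearts came from male wild-type C57BL/6J mice that were 8 weeks old when they were assigned to a diet. For 14 days, 5 mice were fed a control diet with 11.6 kcal% fat and 5 mice a ketogenic diet with 89.5 kcal% fat. After digestion of the heart, cells were pulled out with magnetic beads, and 1 polyA RNA library per mouse was sequenced. Bead isolation on CD31 limits what the libraries represent, because CD31 is also carried by platelets and many leukocytes. No gate against leukocytes is described for these libraries. The paper did examine bead-isolated heart cells by flow cytometry for CD31 and for CD45, a marker of immune cells. Its text gives no fractions.

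B cells read antigen with a membrane immunoglobulin that signals through the CD79A and CD79B chains. T cells read it with a receptor of alpha and beta chains that signals through the CD3 chains and the kinases LCK and ZAP70. NK cells kill with granzymes and carry no rearranged antigen receptor. All of these lymphocytes circulate through the capillaries of the heart and are also resident in its tissue in small numbers.

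The libraries held 10885154 to 12710861 counted reads each, and 15949 genes were abundant enough to test. Endothelial markers were high and close between diets: Pecam1, which encodes CD31, had a mean of 59.6 RPKM (reads scaled to gene length and library size) with the control diet and 56.7 RPKM with the ketogenic diet, Cdh5, the endothelial cadherin, had 162 and 159 RPKM, and the median log2 fold change of 13 endothelial genes was -0.05. No gene longer than 0.3 kb held more than 2.1 reads per base in any mouse, so counts of short, abundant genes were compressed. Ighm stood at 47.8% of a ceiling of 2 reads per base on average, Ighd at 21.4%, Trac at 20.1%, Cd79a at 18.7% and Cd79b at 18.0%. The fold changes of these genes are therefore understated to different degrees. Cdh5 stood at 93.5% of the same ceiling and Pecam1 at 33.8%, so the closeness of these markers between diets could not show equal endothelial content. In RNA from a mixed cell isolate, fewer cells of a type and less RNA per cell cannot be told apart.

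The B cell genes were the most abundant of the 3 groups and the most uniform in direction. Their median level was 5.71 RPKM over the 10 mice, against 1.86 RPKM for the T cell genes and 2.05 RPKM for the NK cell genes tested. Each of the 13 was measured with at least 10 reads in every mouse, and each had a lower fitted level with the ketogenic diet than with the control diet. The median log2 fold change of the 13 was -0.46, with a range of -0.67 to -0.30, against a median of -0.01 over all genes tested. An adjusted p under 0.05 was reached by 2 of them, Cd79a and Ighm, where 0.527% of all genes tested were called lower and 0.809% higher. An unadjusted p under 0.05 was reached by 12, all lower, where 9.26% of all genes tested were lower at that level and 8.57% higher. In 2 genes, Cd79a and Cr2, every ketogenic mouse lay below every control mouse, a pattern found in 1.94% of all genes tested. With libraries scaled by their totals alone, this held for Cd79a but not for Cr2.

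Promoters are shown for 3 B cell genes because the fold changes of the group had one sign, and because each of these promoters carries a match to a different motif of B cell regulators. The windows run from 250 bases before to 50 bases after the RefSeq start of the gene in build GRCm38.p6, 5′ to 3′ on the strand of the gene, with capitals marking the match. In Cd79a, at chr7:24897247-24897546 on the plus strand, the capitals mark the PU box GAGGAA read on the opposite strand. In Cd22, at chr7:30878979-30879278 on the minus strand, they mark the EBF core CCCNNGGG. In Blnk, at chr19:40994172-40994471 on the minus strand, they mark the octamer ATGCAAAT read on the opposite strand.
Cd79a: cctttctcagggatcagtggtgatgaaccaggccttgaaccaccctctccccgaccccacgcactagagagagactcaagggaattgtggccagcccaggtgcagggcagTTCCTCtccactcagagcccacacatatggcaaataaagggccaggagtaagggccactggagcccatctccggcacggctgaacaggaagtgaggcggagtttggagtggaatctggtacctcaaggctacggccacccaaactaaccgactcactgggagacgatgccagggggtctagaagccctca
Cd22: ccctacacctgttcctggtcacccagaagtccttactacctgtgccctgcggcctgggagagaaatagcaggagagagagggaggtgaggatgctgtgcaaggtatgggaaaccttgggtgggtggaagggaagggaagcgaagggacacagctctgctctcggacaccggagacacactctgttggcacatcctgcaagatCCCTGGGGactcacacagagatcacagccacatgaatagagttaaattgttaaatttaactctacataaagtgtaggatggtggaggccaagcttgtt
Blnk: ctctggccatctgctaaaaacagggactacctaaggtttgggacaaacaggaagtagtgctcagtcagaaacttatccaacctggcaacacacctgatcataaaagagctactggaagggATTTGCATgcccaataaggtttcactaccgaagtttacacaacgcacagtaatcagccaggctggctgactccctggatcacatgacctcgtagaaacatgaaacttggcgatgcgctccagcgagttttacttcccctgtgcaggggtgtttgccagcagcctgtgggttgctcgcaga

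Promoter windows were found for 9 of the 13 B cell genes and 13 of the 22 T cell genes, and both strands were searched. The octamer, which OCT factors and the coactivator encoded by Pou2af1 bind, was in 1 of the 9 B cell promoters and in 1.74% of 32851 mouse promoters. The EBF core was in 2 of the 9, Cd22 and Bank1, in 1 T cell promoter, Zap70, and in 13.7% of all promoters. The PU box was in 3 of the 9, Cd79a, Cd37 and Btk, in 9 of the 13 T cell promoters and in 28.3% of all promoters. These matches describe letters in a window and not binding sites. The octamer overlapped no other match in the 3 promoters shown.

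Ighm encodes the heavy chain constant region of IgM and lies on the minus strand of chromosome 12, from 113418558 to 113422730 in mm10. Its levels with the control diet were 237, 176, 218, 215 and 187 CPM (reads scaled to the size of the library) in mice 1 to 5, and with the ketogenic diet 167, 156, 149, 177 and 153 CPM. Ketogenic mouse 4 and control mouse 2 were nearly level, and the other 4 ketogenic mice lay below all controls. The log2 fold change was -0.36 ± 0.08 (SE, n = 5 per diet; edgeR quasi-likelihood test, adjusted p = 0.0442). Because Ighm was so near the ceiling, the counts were also corrected for repeated start positions, a step chosen after the data were seen, and the log2 fold change was then -0.49 (edgeR adjusted p = 0.0369). Per length, Ighm had 92.4 ± 10.6 RPKM with the control diet and 72.4 ± 5.11 RPKM with the ketogenic diet (SD, n = 5 each), above Pecam1 in both. Without scaling to length the order was the reverse. Mean Pecam1 was 613 CPM with the control diet and 577 CPM with the ketogenic diet, against 207 and 160 CPM for Ighm.

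Ighd, the heavy chain of IgD, a membrane immunoglobulin of mature naive B cells, stood at 84.1, 67.9, 98.8, 71 and 64.9 CPM in the control mice and at 62.7, 52.1, 56.8, 77.6 and 64.0 CPM in the ketogenic mice. Ketogenic mouse 4 was above 3 control mice, so the diets overlapped, while the other 4 ketogenic mice lay below every control. The log2 fold change was -0.30 ± 0.13 (SE, n = 5 per diet), which did not pass the adjusted threshold. Cd79a encodes the signalling chain of the B cell receptor, and lies on chromosome 7 from 24897381 to 24902197 (plus strand, mm10). It was at 61.4, 46.6, 61.6, 52.7 and 50.2 CPM with the control diet and at 41.7, 39.7, 37.9, 39.9 and 38.6 CPM with the ketogenic diet. The diets did not overlap, and the 5 ketogenic mice lay within a narrow band. Its log2 fold change was -0.46 ± 0.08 (SE, n = 5 per diet; edgeR quasi-likelihood test, adjusted p = 0.0221). Cd79b, its partner chain, was at 72.4 ± 13.2 CPM with the control diet and 58.6 ± 3.83 CPM with the ketogenic diet (SD, n = 5 each), and its log2 fold change of -0.30 ± 0.11 did not pass the adjusted threshold.

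**Figure D1:**
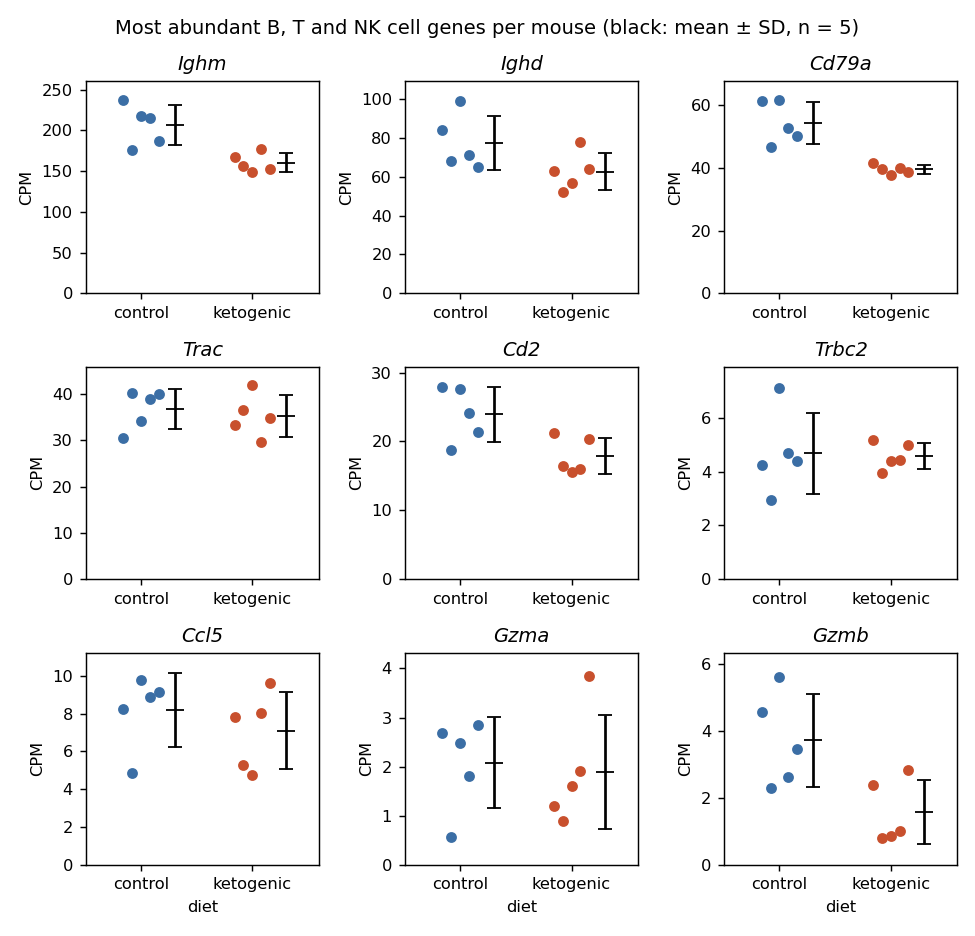
Levels in CPM (vertical axes, from 0) of 9 lymphocyte genes, 3 of each lineage, in each of 5 control (blue) and 5 ketogenic (orange) mice, with the mean ± SD in black. Cd79a separates the diets with all 5 ketogenic mice at 41.7 CPM or below and all controls at 46.6 CPM or above, while Trac and Trbc2 overlap.

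The 2 calls were near the threshold. Over the 10 fits that left out 1 mouse each, Cd79a passed in 5, with adjusted p from 0.0176 to 0.0565 and log2 fold changes from -0.51 to -0.41. Ighm passed in 2, with adjusted p from 0.0295 to 0.103 and log2 fold changes from -0.41 to -0.31 (edgeR, n of 4 against 5). No B cell gene was called without control mouse 1, control mouse 3, or ketogenic mouse 3, 4 or 5. Without control mouse 5, 3 were called, where 56 of 16164 genes tested were called lower. The sign of the fold change did not depend on any of the settings tried: all 273 values of the 13 genes over 21 alternatives were below 0.

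Surface receptors of B cells were lower by similar amounts. Ms4a1, which encodes CD20, was at 58.6 ± 15.1 CPM with the control diet and 40.6 ± 4.26 CPM with the ketogenic diet (SD, n = 5 each), a log2 fold change of -0.53 ± 0.16 (SE). Cd22, an inhibitory lectin receptor of B cells, was at 45.8, 30.5, 37.0, 36.9 and 24.8 CPM in the control mice and at 24.8, 23.6, 21.7, 21.1 and 25.0 CPM in the ketogenic mice. Only control mouse 5 reached down to the ketogenic mice. The log2 fold change of Cd22 was -0.59 ± 0.14 (SE), and that of Cr2, the complement receptor CD21 of the B cell coreceptor, was -0.57 ± 0.15. Cr2 levels were 10.1 to 16.5 CPM in the control mice and 6.67 to 10.1 CPM in the ketogenic mice, with the highest ketogenic and the lowest control mouse level at this rounding. Fcer2a, the low-affinity IgE receptor CD23, and Cd37, a tetraspanin, had log2 fold changes of -0.38 ± 0.15 and -0.42 ± 0.12 (SE). Cd37 overlaps Tead2 on the other strand, and without strand reads of the 2 genes could not be separated. None of these 5 passed the adjusted threshold in edgeR.

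Signalling and regulatory genes of the B lineage had the same sign. Blnk, the adaptor that links the receptor to downstream enzymes, had a log2 fold change of -0.67 ± 0.26 (SE), with the widest error of the 13. Control mouse 1 stood at 33.7 CPM and the other controls at 14.8 to 19.3 CPM. Without control mouse 1 its log2 fold change was -0.41. Bank1, a B cell scaffold protein, was at -0.49 ± 0.16 and Pax5, the transcription factor that fixes B cell identity, at -0.47 ± 0.18. Btk, the Bruton tyrosine kinase, was at -0.44 ± 0.22 and was the B cell gene that did not reach an unadjusted p of 0.05. Btk is also used in myeloid cells, so its RNA need not come from B cells.

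The mice differed among themselves within the control diet. Of the 13 B cell genes, 9 had their highest level in control mouse 1 and 4 in control mouse 3, and all 13 had their lowest level in a ketogenic mouse. Summed over the 13 genes, the levels were 885, 599, 778, 692 and 617 CPM in control mice 1 to 5 and 564, 514, 513, 593 and 504 CPM in the ketogenic mice. The sums did not overlap, though control mouse 2 and ketogenic mouse 4 were 599 and 593 CPM. Without control mouse 1 the median log2 fold change was -0.35, all 13 genes were still lower and 8 reached an unadjusted p under 0.05. In that fit, 1253 of 16152 genes tested were lower at that level.

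**Figure D2:**
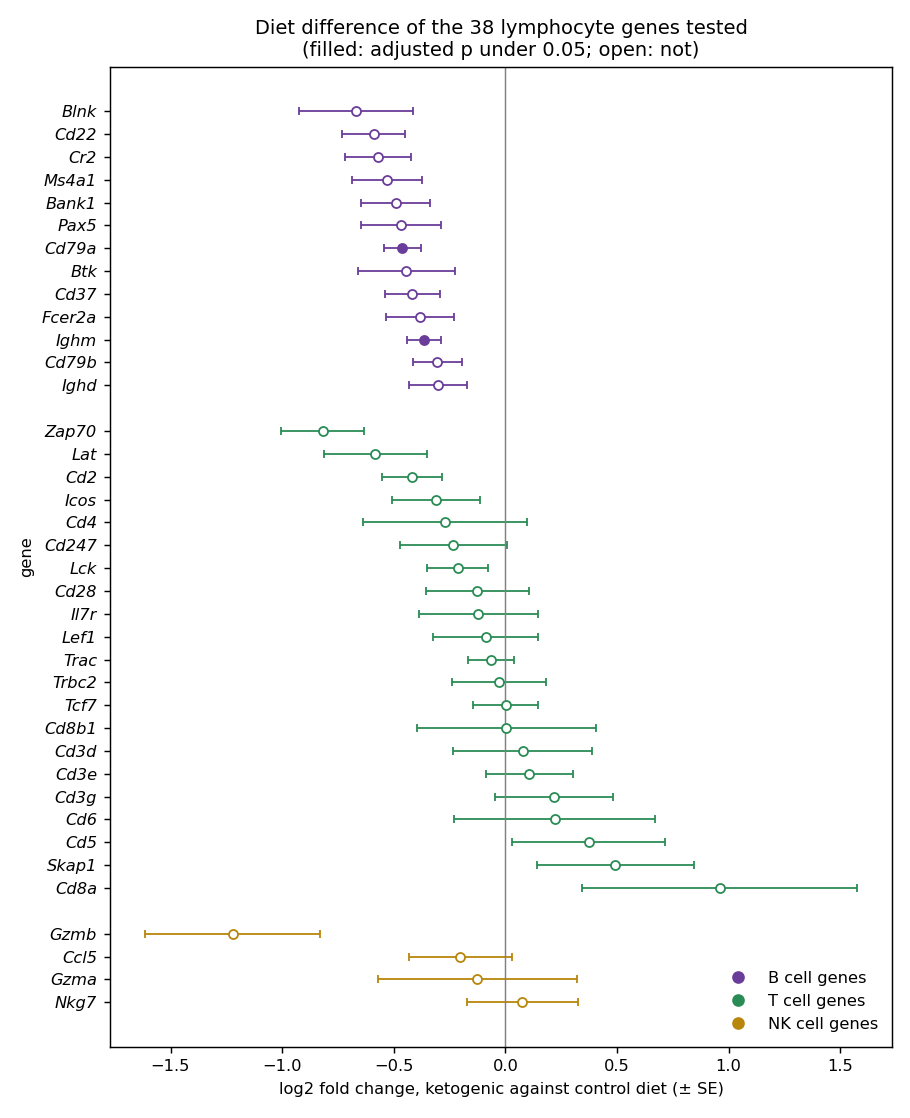
Log2 fold change of the ketogenic against the control diet (horizontal axis, ± SE from the edgeR fit, n = 5 per diet) for the 38 lymphocyte genes tested, grouped as B (purple), T (green) and NK cell genes (ochre), with filled points for an adjusted p under 0.05. All 13 B cell genes lie left of 0, between -0.67 and -0.30, while 9 of 21 T cell genes lie to the right.

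T cell genes showed no common direction in the fit of all 10 mice. Of the 22, 21 could be tested, 9 were higher and 12 lower, and the median log2 fold change was -0.06. Without control mouse 1, 15 of the 21 were lower, with a median of -0.07. None was called by edgeR at an adjusted p under 0.05 in either direction. DESeq2 called 1 of them lower, where it called 375 of 15949 genes lower. At an unadjusted p under 0.05 in edgeR, 3 of the 21 were lower, Cd2, Lat and Zap70, and none higher, against 9.26% and 8.57% of all genes. Zap70 was also the T cell gene with every ketogenic mouse below every control, a pattern found in 1.94% of all genes. Counts were low: Trac was the only T cell gene with a mean above 10 RPKM, and Ctla4, the inhibitory receptor that was not tested, had 0 to 20 reads per mouse. For 12 of the 21 T cell genes, a difference as large as the B cell median was within 2 SE of 0.

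Trac, the constant region of the receptor's alpha chain on chromosome 14 (54220521 to 54224206, plus strand, mm10), was at 30.6, 40.3, 34.1, 39.0 and 40.0 CPM in the control mice and at 33.3, 36.5, 41.9, 29.7 and 34.8 CPM in the ketogenic mice. Both the highest and the lowest mouse had the ketogenic diet. The log2 fold change was -0.06 ± 0.11 (SE, n = 5 per diet). Trac held 330 to 496 reads per mouse. The 128 alpha chain V segments together held 4 to 15 reads in the control mice and 8 to 22 in the ketogenic mice. Trac reads therefore need not all come from rearranged receptors of T cells, and their source was not tested. Trbc2, a constant region of the beta chain, was at 4.27, 2.95, 7.12, 4.71 and 4.41 CPM in the control mice and at 5.17, 3.95, 4.39, 4.43 and 5.01 CPM in the ketogenic mice. The 5 ketogenic mice lay inside the range of the controls. Trbc2 shares most of its sequence with Trbc1, so reads may be split between them in a way the deposited counts do not show.

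The CD3 chains that carry the receptor's signal pointed slightly up or down with errors as large as the differences. Log2 fold changes were 0.08 ± 0.31 for Cd3d, 0.11 ± 0.20 for Cd3e, 0.22 ± 0.26 for Cd3g and -0.23 ± 0.24 for Cd247, the zeta chain (SE, n = 5 per diet). Cd3e was the deepest of the first 3, with 64 to 130 reads per mouse. Cd247 had 228 to 616 reads, but its locus overlaps Pou2f1 on the other strand, and reads of the 2 genes could not be separated without strand. The coreceptors did not separate the diets either. Cd4 was at 5.01 ± 2.54 CPM with the control diet and 4.15 ± 1.55 CPM with the ketogenic diet, and Cd8b1 at 2.76 ± 1.24 and 2.76 ± 1.42 CPM (SD, n = 5 each). Cd8a, with 0 to 24 reads per mouse, had the highest log2 fold change of the group, 0.96 ± 0.62 (SE), with overlapping diets.

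The kinases and adaptors below the receptor held the 2 lowest fold changes of the T cell genes. Zap70, the kinase recruited to the phosphorylated CD3 chains, was at 4.83, 3.61, 3.83, 3.08 and 4.58 CPM in the control mice and at 2.63, 2.43, 1.69, 2.26 and 2.27 CPM in the ketogenic mice. Every ketogenic mouse was below every control mouse, with 20 to 53 reads per mouse behind these levels. The log2 fold change was -0.82 ± 0.19 (SE, n = 5 per diet), and the edgeR adjusted p was 0.0563, with a range of 0.0283 to 0.408 over the alternatives. Lat, the membrane adaptor that ZAP70 phosphorylates, was at -0.58 ± 0.23. Lck, the kinase bound to CD4 and CD8, was at -0.21 ± 0.14, and Skap1, an adaptor for integrin activation, was at 0.49 ± 0.35. ZAP70 and LAT are shared with NK cells, and LAT also with platelets, so neither transcript is confined to T cells.

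Cd2, an adhesion receptor shared by T, NK and mouse B cells, was at 27.9, 18.7, 27.6, 24.2 and 21.3 CPM in the control mice and at 21.2, 16.4, 15.5, 16.0 and 20.3 CPM in the ketogenic mice. The 2 highest ketogenic mice overlapped the lowest control mouse. Its log2 fold change was -0.42 ± 0.14 (SE, n = 5 per diet), which did not pass the adjusted threshold. Among the other surface molecules, Cd5 and Cd6, a pair of scavenger-receptor proteins, were at 0.37 ± 0.34 and 0.22 ± 0.45. The costimulatory receptors Cd28 and Icos were at -0.13 ± 0.23 and -0.31 ± 0.20. Tcf7 and Lef1, transcription factors of naive and memory T cells, and Il7r, the interleukin-7 receptor, were at 0.00 ± 0.15, -0.09 ± 0.24 and -0.12 ± 0.27. For each gene of this paragraph other than Cd2, the interval of 2 SE around the fold change includes 0.

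NK cell genes were the fewest. Of the 6, 4 could be tested, and Klrb1c, which encodes the receptor NK1.1, had 3 to 8 reads per mouse, while Ncr1, the receptor NKp46, had 0 to 24. Ccl5, a chemokine of cytotoxic lymphocytes, was at 8.26, 4.84, 9.79, 8.87 and 9.17 CPM in the control mice and at 7.80, 5.30, 4.73, 8.02 and 9.64 CPM in the ketogenic mice. The diets overlapped over nearly the whole range, with a log2 fold change of -0.20 ± 0.23 (SE, n = 5 per diet). Gzma, which encodes granzyme A, was at 2.69, 0.574, 2.49, 1.81 and 2.85 CPM in the control mice and at 1.19, 0.899, 1.6, 1.92 and 3.84 CPM in the ketogenic mice. Its highest mouse was ketogenic mouse 5 and its lowest was control mouse 2, and the log2 fold change was -0.13 ± 0.45.

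Gzmb, which encodes granzyme B, was the NK cell gene with the widest difference. It was at 4.55, 2.3, 5.61, 2.62 and 3.46 CPM in the control mice and at 2.38, 0.809, 0.844, 1 and 2.82 CPM in the ketogenic mice. Ketogenic mice 2, 3 and 4 lay below all controls, and ketogenic mice 1 and 5 overlapped them. The log2 fold change was -1.22 ± 0.39 (SE, n = 5 per diet), with an edgeR unadjusted p of 0.00874 and an adjusted p of 0.138. The 10 fits that left out 1 mouse each gave -1.54 to -1.03. Nkg7, a granule membrane protein, was at 0.08 ± 0.25. No NK cell gene was called by edgeR or by DESeq2, 1 of the 4 was lower at an unadjusted p under 0.05 in edgeR, against 9.26% of all genes, and the median log2 fold change of the 4 was -0.16.

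A score per mouse, the mean over a group's tested genes of the z-score of log2 CPM across the 10 mice, set the 3 lineages side by side. The B cell score was 0.657 ± 0.776 with the control diet and -0.657 ± 0.343 with the ketogenic diet (SD, n = 5 each). Control mice 1 and 3 were highest at 1.77 and 1.09, control mice 2 and 5 were close to 0, and all 5 ketogenic mice lay below the lowest control. The T cell score was 0.114 ± 0.597 with the control diet and -0.114 ± 0.333 with the ketogenic diet, and the NK cell score 0.227 ± 0.840 and -0.227 ± 0.839. In both, no ketogenic mouse lay below the lowest control, which was control mouse 2 each time. The NK cell score rests on 4 genes, Ccl5, Gzma, Gzmb and Nkg7, because the NK receptors Klrb1c and Ncr1 were too scarce to test. It is a score of cytotoxic lymphocyte genes and not of NK cells alone. The order of the mice differed between lineages: control mouse 1 had the highest B cell score, control mouse 3 the highest T cell score and ketogenic mouse 5 the highest NK cell score. Since these scores use the genes listed with the results known, they are given without a p.

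**Figure D3:**
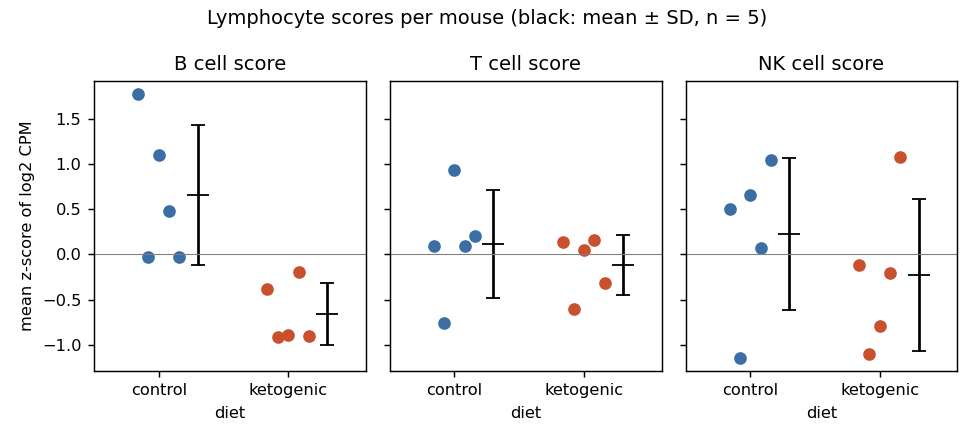
Score of the B, T and NK cell genes (vertical axis, mean z-score of log2 CPM, no unit) in each control (blue) and ketogenic (orange) mouse, with the mean ± SD in black. The B cell scores of the 5 ketogenic mice, -0.91 to -0.20, lie below those of the 5 controls, -0.03 to 1.77, while T and NK cell scores overlap.

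Lymphocyte genes outside the 41 were read from the same fit. They come from the same RNA as the listed genes and are no independent sample of the cells. All 20 further B cell genes were tested, 19 were lower, and the median log2 fold change was -0.45. Of these, 1 was called lower and 14 reached an unadjusted p under 0.05, against 0.527% and 9.26% of all genes. The called gene was Pou2af1, the coactivator of OCT factors at immunoglobulin promoters. It was at 20, 11.2, 14.9, 15.6 and 10.7 CPM in the control mice and at 7.04, 9.80, 6.75, 6.93 and 7.13 CPM in the ketogenic mice. The diets did not overlap, and the log2 fold change was -0.94 ± 0.18 (SE, n = 5 per diet; edgeR adjusted p = 0.0317). It passed in 3 of the 10 fits that left out 1 mouse, those without control mouse 2, control mouse 5 or ketogenic mouse 2, with adjusted p from 0.0163 to 0.0759.

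The most abundant of the further B cell genes differed in how near they stood to the ceiling. Igkc, the kappa light chain constant region, was at 85.1, 71.2, 80.6, 79.9 and 73.2 CPM in the control mice and at 74.4, 71.4, 69.2, 73.4 and 67.4 CPM in the ketogenic mice. It stood at 81.3% of the ceiling, the diets overlapped, and its log2 fold change was -0.13 ± 0.06 (SE), or -0.24 after the correction for repeated start positions. Ly6d, a surface marker of the B lineage, and Cxcr5, the receptor that guides B cells to follicles, had log2 fold changes of -0.40 ± 0.13 and -0.66 ± 0.19. Neither passed the adjusted threshold. Ly6d was at 32.7 to 55.1 CPM with the control diet and 30.2 to 37.8 CPM with the ketogenic diet, and Cxcr5 at 47.3 to 86.0 CPM and 27.6 to 48.1 CPM.

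Of 22 further T cell genes, 16 were tested and 11 were lower, with a median log2 fold change of -0.22 and 4 lower at an unadjusted p under 0.05, against 9.26% of all genes. Grap2, an adaptor of T cell receptor signalling that is also made in platelets and megakaryocytes, was the 1 gene called, against 0.527% of all genes called lower. Its levels were 5.66, 4.75, 7.65, 5.79 and 4.24 CPM with the control diet and 3.31, 1.80, 2.62, 2.84 and 3.13 CPM with the ketogenic diet. The diets did not overlap, and the log2 fold change was -1.03 ± 0.21 (SE, n = 5 per diet; edgeR adjusted p = 0.0381). It passed in the fits without control mouse 5 or ketogenic mouse 2 and in no other of the 10, with adjusted p from 0.0351 to 0.0859. All 8 platelet genes also had fold changes below 0, with a median of -0.90 on the log2 scale, none called and 7 at an unadjusted p under 0.05, and their summed levels were 562 to 932 CPM with the control diet and 238 to 644 CPM with the ketogenic diet. The part of platelet RNA in the Grap2 and Lat values was not tested.

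Ccr7, the chemokine receptor of naive lymphocytes, and Cd69, an early activation marker, are shared by T and B cells. Ccr7 was at 149, 101, 121, 96.8 and 115 CPM in the control mice and at 95.3, 69.0, 80.6, 98.4 and 96.0 CPM in the ketogenic mice, and Cd69 at 35.7 to 56.3 CPM and 23.3 to 36.9 CPM. Only ketogenic mouse 4 reached into the controls for Ccr7. Their log2 fold changes were -0.41 ± 0.13 and -0.56 ± 0.17 (SE), and neither passed the adjusted threshold. Trbc1, the other beta chain constant region, was at 1.80 to 4.18 CPM and 1.35 to 2.53 CPM, with a log2 fold change of -0.33 ± 0.26. Foxp3, the factor of regulatory T cells, had 0 to 9 reads per mouse and was not tested.

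Of 21 further NK and cytotoxic genes, 8 were tested, 6 were lower and none was called by edgeR, while 2 were lower at an unadjusted p under 0.05, against 9.26% of all genes. The most abundant were Klra9, a Ly49 receptor, Ctsw, a protease of cytotoxic cells, and Cd7, a receptor of T and NK cells. Klra9 was at 14.2 to 25.0 CPM with the control diet and 15.2 to 41.8 CPM with the ketogenic diet, with a log2 fold change of 0.38 ± 0.24 (SE). Ly49 genes are near-identical copies of each other, and how the counting shared reads among them is uncertain. Klra9 had 173 to 495 reads per mouse, against 0 to 5 for Klra4, 0 to 3 for Klra8 and 3 to 8 for Klrb1c. Its reads therefore need not come from NK cells, and their source was not tested. Ctsw and Cd7 were at -0.37 ± 0.17 and -0.87 ± 0.34.

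V segments of rearranged antigen receptors were not among the 41 genes, but many share their transcripts with members. Heavy chain segments are joined to Ighm or Ighd in the RNA, and T cell receptor segments to constant regions such as Trac and Trbc2. Their sums are therefore no independent test of the diet differences of the members. Reads were summed over 348 immunoglobulin V segments and over 170 T cell receptor V segments, the gene pieces that are joined to make each cell's receptor. Immunoglobulin V segments summed to 153, 110, 141, 136 and 104 CPM in the control mice and to 110, 94.0, 93.7, 104 and 91.4 CPM in the ketogenic mice. Ketogenic mice 2, 3 and 5 lay below every control, and ketogenic mice 1 and 4 were level with the 2 lowest controls. The means were 129 ± 21.3 CPM and 98.6 ± 7.91 CPM (SD, n = 5 each), a log2 difference of -0.39 (two-sided exact permutation test over all regroupings of the mice, p = 0.0397, where 0.00794 is the smallest p possible; adjusted over the 2 sums, p = 0.0794). The difference did not pass after this adjustment. Without control mouse 1 it was -0.32 (exact permutation p = 0.0556), and without ketogenic mouse 2, 3 or 5 the exact permutation p was 0.0714.

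T cell receptor V segments held 53 to 90 reads per mouse, against 1046 to 1652 for immunoglobulin. They summed to 4.92, 4.51, 8.01, 6.15 and 5.88 CPM in the control mice and to 6.11, 5.03, 6.92, 4.51 and 6.42 CPM in the ketogenic mice. The ketogenic mice lay within the range of the controls. The log2 difference was -0.02 (two-sided exact permutation test, p = 0.937; adjusted over the 2 sums, p = 0.937). The log2 ratio of immunoglobulin to T cell receptor V segment reads, chosen after the values were seen, was 4.46 ± 0.347 with the control diet and 4.10 ± 0.311 with the ketogenic diet (SD, n = 5 each; two-sided exact permutation test, p = 0.167), so a difference between the 2 receptor types was not shown.

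**Figure D4:**
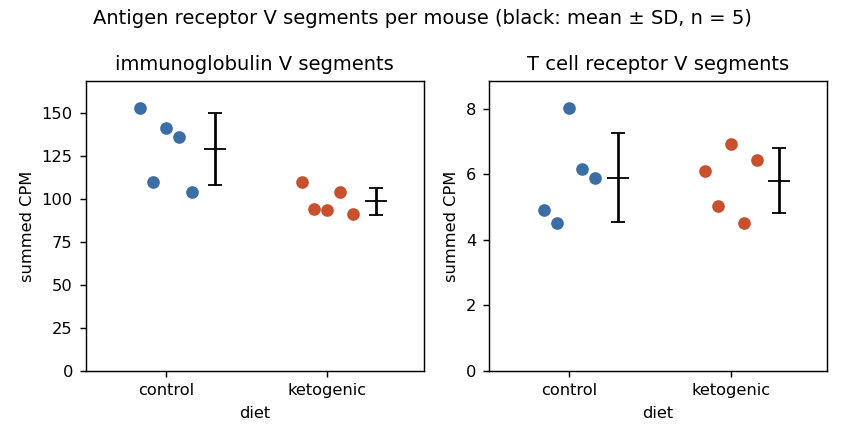
Summed level (vertical axes, CPM, from 0) of immunoglobulin and T cell receptor V segments in each control (blue) and ketogenic (orange) mouse, with the mean ± SD in black. Immunoglobulin sums are 104 to 153 CPM with the control diet and 91.4 to 110 CPM with the ketogenic diet, and T cell receptor sums overlap.

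The immunoglobulin reads were spread over many segments. Between 147 and 173 V segments had a read in a mouse, and the top segment held 3.76% to 5.10% of the V reads, so no mouse was dominated by a single segment. The kappa family Igkv gave 781 to 1076 reads in the control mice and 692 to 887 in the ketogenic mice, the heavy chain family Ighv 336 to 456 and 279 to 334 reads, and the 3 lambda segments 80 to 122 and 64 to 94 reads. The heavy chain reads of the 5 ketogenic mice were all below those of the controls as counted, before scaling to library size, a pattern picked out after the values were seen. Constant regions of switched isotypes were scarce beside Ighm, which had 1734 to 2549 reads. The 4 Ighg genes held 2 to 22 reads per mouse in sum, Igha 0 to 51 and Ighe 0 to 1. Jchain, which joins IgM and IgA in plasma cells, had 0 to 11 reads. Reads of near-identical V segments may be split or dropped by the counting, so sums were compared and not single segments.

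Genes of other blood cells were read in the same samples. Of 20 genes listed as common to leukocytes, 19 were lower with a median log2 fold change of -0.53. At an unadjusted p under 0.05, 8 of the 20 were lower, against 9.26% of all genes. Laptm5, a lysosomal protein of blood cells, was the 1 gene called (-0.59 ± 0.12 SE, edgeR adjusted p = 0.0415), against 0.527% of all genes called lower. Laptm5 passed in 4 of the 10 fits that left out 1 mouse, with adjusted p from 0.0345 to 0.0969 (those without control mouse 2, control mouse 5, ketogenic mouse 1 or ketogenic mouse 2). Ptprc, which encodes CD45, was at 117, 44.7, 89.3, 62.0 and 58.6 CPM in the control mice and at 52.2, 48.4, 42.3, 77.2 and 47.1 CPM in the ketogenic mice. Summed leukocyte genes were at 1170 to 2040 CPM with the control diet, with control mouse 1 at the top, and at 943 to 1230 CPM with the ketogenic diet. The median of 14 macrophage genes was -0.48, none of them called and 6 lower at an unadjusted p under 0.05, where 9.26% of all genes were lower at that level. Without control mouse 1 the medians were -0.04 for the macrophage genes, -0.33 for the leukocyte genes, -0.97 for the platelet genes and -0.35 for the 13 B cell genes. Summed macrophage genes were at 494 to 1080 CPM and 388 to 596 CPM.

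Genes of heart muscle had fold changes of the opposite sign. Of 13 cardiomyocyte genes tested, 12 were higher, none was called and 9 were higher at an unadjusted p under 0.05, against 8.57% of all genes, with summed levels of 823 to 975 CPM and 935 to 1290 CPM. With a cardiomyocyte score as a covariate, all 13 B cell genes were still lower, 7 had an unadjusted p under 0.05 and none was called. In that fit, 875 of 15949 genes tested were lower at an unadjusted p under 0.05, and 6 were called lower. Of the 21 T cell genes tested, 18 were lower with the covariate, against 12 without it, and 2 had an unadjusted p under 0.05. Cd79a then had a log2 fold change of -0.48 against -0.46 without the covariate, and its edgeR adjusted p was 0.148, the highest of its range of 7.37e-05 to 0.148 over the alternatives. That of Ighm was -0.38 against -0.36. The part that leukocyte number, platelets or muscle RNA had in the lymphocyte values was not tested.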

How the data were processed

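PolyA RNA of CD31-selected heart cells from 10 mice was sequenced as single reads by the authors. The submitters' processing notes name bcl2fastq 2.17.1.14, STAR 2.3, HTSeq 0.6.0 and build mm10. Duplicate removal, annotation release and strand setting are not given in the sources used here. The authors deposited raw counts per gene and RPKM values in separate tables. Of the 46983 identifiers of the count table, 46488 were matched to GENCODE names by Ensembl number.

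The counts of all 10 mice were fitted with edgeR 4.0.16 (TMM scaling, filterByExpr, quasi-likelihood F-test, Benjamini-Hochberg adjustment over 15949 genes, diet as the sole term), and the SE is the log2 fold change over the root of F. The study used DESeq2, which was run here as an alternative (1.42.0). RPKM served to compare levels between genes, and was also tested with limma 3.58.1 on log2(RPKM + 1) and log2(RPKM + 0.1). A correction for repeated start positions, which assumes 2 possible reads per base, was chosen after the data were seen. The code was tested on simulated data.

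Members and lists were chosen with earlier results of these data known. Given mouse by mouse were members called, the 3 most abundant per lineage, and called or most abundant genes of the further lists, with Cd22 and Zap70 added after their values were seen. From lists of other cells, Ptprc, Pecam1, Cdh5 and the gene of smallest p were named. The further genes with ranges follow the same rule, apart from Foxp3, Cr2 and Jchain, which were added likewise. Of the 41 members, 17 overlap another annotated gene and 3 a protein-coding one.

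Samples with the same number in the 2 diets had deviations correlated at -0.134 to 0.0936, and numbers were not used to pair mice. The paper describes the control mice as littermates, but the sample labels name no litter, so litters were not modelled. No 2 libraries of a diet agreed within sampling noise (chi-square per gene 4.04 to 8.02). P-values measure the spread between mice.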

Additional observations from a re-analysis of the deposited data

Results flagged for a closer look

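Across 80 groups of 5 mice, 4 held a mouse set apart from the rest by more than 0.71 of the group's range, where 4 are expected by chance at 1 in 20. Pou2af1 was highest among the ketogenic mice in mouse 2, at 9.80 CPM with the next at 7.13 CPM, and still below every control. Ctsw was highest among the controls in mouse 5, at 7.35 CPM with the next at 5.48 CPM. Ptprc, the gene of CD45, was highest among the ketogenic mice in mouse 4, at 77.2 CPM with the next at 52.2 CPM. Ccr2, a chemokine receptor of monocytes, was highest in the same mouse, at 19.6 CPM with the next at 7.13 CPM.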

How the results depend on the processing

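The signs of the B cell genes held under every alternative run (0 of 273 values reversed), those of T cell genes reversed in 38 of 440 values (11 genes) and those of NK cell genes in 5 of 82 (2 genes). The counts of calls were less stable. DESeq2 called 815 of 15949 genes, 375 lower and 440 higher. Among them were 7 B, 1 T, 7 further B and 3 further T cell genes. In edgeR, 213 genes were called, with 2, 0, 1 and 1 in these lists. Requiring at least 10 reads in every mouse called 248 of 14260 genes, among them 1 T cell gene, Zap70. On log2(RPKM + 0.1), limma called 218 of 15949 genes, among them 1 B cell gene. The cardiomyocyte covariate left 29 genes and 0 B, 0 further B and 0 further T cell genes. The labels do not say that mouse numbers pair the samples. With a replicate block, edgeR called 113 genes, 1 B cell gene (Ighm), 0 further B and 0 further T cell genes, and each number correlated best with its own number in 0 of 5 cases.

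Leaving out 1 mouse gave 86 to 492 called genes (86 without control mouse 2, 492 without ketogenic mouse 2), 0 to 3 B, 0 to 2 further B and 0 to 1 further T cell genes. The median log2 fold change ranged from -0.55 to -0.35 for B and from -0.16 to 0.08 for T cell genes, the latter above 0 without control mouse 3 or ketogenic mouse 2. Immunoglobulin V segments ranged from -0.46 to -0.32, missing an exact permutation p of 0.05 in 4 of 10 cases, and T cell receptor V segments from -0.11 to 0.11, above 0 without control mouse 3 (0.11), ketogenic mouse 2 (0.02) or ketogenic mouse 4 (0.05). The cause of these changes was not tested, and each of these fits also held 1 mouse fewer. Depth limits the T and NK cell genes most, with 3 of 41 genes too scarce to test.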

Other observations

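Further marker lists were read from the same fit. Among 5 dendritic cell genes tested, 4 were higher. Cd209a, a lectin of dendritic cells and some macrophages, was the 1 gene called, against 0.809% of all genes called higher. Cd209a was at 2.23, 0.492, 1.51, 1.90 and 1.38 CPM in the control mice and at 6.28, 4.58, 3.97, 10.8 and 4.62 CPM in the ketogenic mice. The log2 fold change was 2.01 ± 0.37 (SE, n = 5 per diet; edgeR adjusted p = 0.025). It passed in 7 of the 10 fits that left out 1 mouse, with adjusted p from 0.0228 to 0.0671, and missed without control mouse 3 or control mouse 5 or ketogenic mouse 1. Of 9 monocyte and neutrophil genes, 7 were lower and none was called, and Ccr2 had the smallest p, with a log2 fold change of 1.20 ± 0.41.

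None of the 4 plasma cell genes tested was called. Irf4, a transcription factor of plasma cells and activated lymphocytes, had the smallest p of them and was at -0.46 ± 0.14 (SE). No call was made among 6 erythroid, 9 fibroblast and 8 mural cell genes, whose medians were -0.05, 0.11 and -0.03. Some of these counts were nearly fixed across the mice or near the ceiling of reads per base. Hba-a1 held 97 to 98 reads in every mouse, and Rgs5 and Acta2 stood at 81.7% and 78.5% of the ceiling. For such genes, no call and a fold change near 0 do not show equal levels. The genes of smallest p were Alas2 (0.10 ± 0.06), the enzyme that starts haem synthesis in red cells, Dpt (0.43 ± 0.25), a matrix protein, and Acta2 (-0.06 ± 0.04), smooth muscle actin. In the macrophage, platelet, endothelial and cardiomyocyte lists the genes of smallest p were F13a1 (-0.83 ± 0.22), Gp9 (-0.87 ± 0.23), Flt1 (-0.10 ± 0.02) and Mb (0.38 ± 0.09), none of them called. No gene of the erythroid, fibroblast or mural lists had an unadjusted p under 0.05.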
